A study of Homo sapiens with 4 samples.

Results

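The genes described here encode the class I histone deacetylases HDAC1, HDAC2, HDAC3 and HDAC8 and the class IIa histone deacetylases HDAC4, HDAC5, HDAC7 and HDAC9. They were chosen by name, and every deposited H3K9la record that overlapped one of these 8 genes or lay within 20 kb of it (RefSeq positions, GRCh38.p14) was taken. A record is 1 region of enrichment in a peak list. This gave 53 of the 56875 records of the sg3 list and 36 of the 40332 records of the V2 list. H3K9la, histone H3 carrying lactate on lysine 9, was profiled by ChIP-seq in KYSE30, an established oesophageal squamous carcinoma cell line. The arms sg3 and V2 each had an H3K9la ChIP and an input, and the labels do not explain the arm names. Each arm has 1 library of a kind and 1 peak list, so no value below has a replicate check and no test between the arms was made. The deposited V2 peaks are attached to the input of that arm, not to its ChIP, and were read as the peaks of the arm. Read depth is unknown from these files. At the starts of 10 squamous epithelial marker genes, the sg3 list had a record at 10 and the V2 list at 8, and at 5 fibroblast and endothelial markers both lists had one at 2, COL1A1 and COL1A2. Neither list had one at any of 5 blood markers or 3 liver markers. Over all 19974 protein-coding genes, 47.2% had a record within 1 kb of a start in sg3 and 28.7% in V2.

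Histone deacetylases remove acetyl groups, and in several cases other acyl groups, from lysines of histones and other proteins. HDAC1 and HDAC2 are the catalytic subunits of the Sin3, NuRD and CoREST corepressor complexes, HDAC3 is that of the NCoR and SMRT complexes, and HDAC8 works outside these complexes and acts on cohesin. HDAC1, HDAC2 and HDAC3 have also been described as enzymes that can remove lactyl groups from histones. The class IIa enzymes have little deacetylase activity of their own, bind MEF2 transcription factors and move between nucleus and cytoplasm when kinases mark them for 14-3-3 proteins. A ChIP record at a gene shows where the mark was enriched and does not measure the enzyme.

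The start regions of the members differed widely in CpG content, and the printed bases show this range. Each line gives the 250 bases before a listed start from RefSeq (GRCh38.p14), 5′ to 3′, with every CpG in capitals. HDAC5 has no entry.
HDAC1, chr1:32291833-32292082, plus strand: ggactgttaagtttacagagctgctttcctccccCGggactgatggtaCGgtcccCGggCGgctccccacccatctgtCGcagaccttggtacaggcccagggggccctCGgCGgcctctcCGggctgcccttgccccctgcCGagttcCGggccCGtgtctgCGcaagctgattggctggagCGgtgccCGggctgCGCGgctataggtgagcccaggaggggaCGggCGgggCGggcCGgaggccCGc
HDAC2, chr6:113971149-113971398, minus strand: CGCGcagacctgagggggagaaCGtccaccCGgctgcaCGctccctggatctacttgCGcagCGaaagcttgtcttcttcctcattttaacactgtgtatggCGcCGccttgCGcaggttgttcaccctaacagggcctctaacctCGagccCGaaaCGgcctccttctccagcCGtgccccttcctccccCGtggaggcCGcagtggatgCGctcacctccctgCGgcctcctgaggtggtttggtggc
HDAC3, chr5:141636850-141637099, minus strand: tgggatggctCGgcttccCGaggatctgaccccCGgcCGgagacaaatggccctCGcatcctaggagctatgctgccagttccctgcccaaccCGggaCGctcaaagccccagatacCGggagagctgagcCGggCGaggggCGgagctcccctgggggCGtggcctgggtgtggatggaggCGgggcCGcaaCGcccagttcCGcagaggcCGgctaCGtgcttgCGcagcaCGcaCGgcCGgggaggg
HDAC8, chrX:72572844-72573093, minus strand: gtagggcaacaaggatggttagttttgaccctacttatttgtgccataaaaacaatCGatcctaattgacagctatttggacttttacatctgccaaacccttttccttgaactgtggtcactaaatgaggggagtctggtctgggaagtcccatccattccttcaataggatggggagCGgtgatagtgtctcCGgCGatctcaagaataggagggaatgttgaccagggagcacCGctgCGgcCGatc
HDAC4 outermost start, chr2:239401650-239401899, minus strand: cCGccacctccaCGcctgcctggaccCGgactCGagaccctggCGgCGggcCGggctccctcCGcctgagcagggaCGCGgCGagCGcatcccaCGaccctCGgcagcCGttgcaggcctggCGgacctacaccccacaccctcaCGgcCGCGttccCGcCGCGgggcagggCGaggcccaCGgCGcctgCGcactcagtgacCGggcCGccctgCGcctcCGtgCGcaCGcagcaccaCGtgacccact
HDAC9 outermost start, chr7:18086575-18086824, plus strand: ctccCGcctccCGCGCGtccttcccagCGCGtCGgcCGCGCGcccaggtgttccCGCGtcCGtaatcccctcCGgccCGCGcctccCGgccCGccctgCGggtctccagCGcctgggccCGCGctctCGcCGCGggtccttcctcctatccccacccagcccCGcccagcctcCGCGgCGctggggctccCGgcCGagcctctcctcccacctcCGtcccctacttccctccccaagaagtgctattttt
HDAC9 innermost start, chr7:18509020-18509269, plus strand: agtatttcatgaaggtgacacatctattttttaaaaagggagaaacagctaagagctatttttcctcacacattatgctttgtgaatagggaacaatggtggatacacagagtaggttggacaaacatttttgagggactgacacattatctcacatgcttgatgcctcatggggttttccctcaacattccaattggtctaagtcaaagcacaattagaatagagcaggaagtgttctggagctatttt

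Counted over the whole 300-base promoter window (250 bases before to 50 bases after a start), these starts held 28 CpG for HDAC1, 24 for HDAC2, 31 for HDAC3, 9 for HDAC8, 40 for the outermost HDAC4 start, 41 for the outermost HDAC9 start and 0 for the innermost HDAC9 start. The HDAC7 start, not printed, held 33. The median over 22156 starts of protein-coding genes was 21. H3K9la records lay within 1 kb of CpG-rich starts more often than of CpG-poor starts in both lists. Of starts with 30 CpG or more, 64.8% had an sg3 record and 42.2% a V2 record, against 10.8% and 6.54% of starts with 0 to 4 CpG. HDAC9 had the opposite arrangement, with no record at its start of 41 CpG and records in both lists at its start of 0 CpG. Searched on both strands of the 300 bases, the E-box CACGTG, a palindrome found in 8.34% of these promoters, occurred at the outermost HDAC4 start. The CCAAT box CCAAT, found in 34.6%, occurred once at HDAC1 and on both strands of the innermost HDAC9 start. There the match on either strand comes from the same palindrome, CCAATTGG, in the printed bases. The CCAAT box also occurred on both strands of the overlapping windows of the HDAC9 starts at 18495710 and 18495749. The GC box GGGCGG, found in 56.3%, occurred 6 times at HDAC1, 3 times at HDAC3, 3 times at the outermost HDAC9 start and once at the outermost HDAC4 start. The AP-1 motif TGANTCA, a palindrome found in 6.16%, occurred at the HDAC9 starts at 18495710 and 18495749, whose windows overlap. The MEF2 motif, found in 2.19%, occurred at the outermost HDAC9 start. The TATA box TATAAA, found in 9.46%, occurred at no listed start of the members. These matches are descriptions of the letters only.

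All members but HDAC8 had a record in the gene or within 20 kb in each list, where the background over all 19974 protein-coding genes was 68.8% in sg3 and 51.9% in V2. The window is wider for longer genes, and this background was not matched for gene length. Most members carried H3K9la near a start. A record lay within 1 kb of a start in 7 of the 8 genes in the sg3 list, where the background was 47.2%, and in 6 of the 8 in the V2 list, where it was 28.7%. The background was 48.9% and 29.6% over the 15813 genes with a listed start. A gene counted if any of its starts had a record. HDAC4 and HDAC9 have 5 listed starts each, where the 15813 genes have 22156 in all. The background was not matched for the number of starts or for CpG content. Counted per start, 62.7% of starts with 20 to 29 CpG had an sg3 record and 36.8% a V2 record. With 30 CpG or more the shares were 64.8% and 42.2%. For HDAC5 either end of the gene was used. Both lists had such a record at HDAC1, HDAC2, HDAC4, HDAC5, HDAC7 and HDAC9. HDAC3 had one in the sg3 list alone, a state found in 18.9% of all genes. HDAC8 had none. No member had a start record in V2 alone, a state found in 0.441% of genes. With a threshold of 10 on -log10 q the counts were 5 and 3. The share of all genes was not counted at that threshold, so these counts have no background. By class, the sg3 list marked starts of 3 class I and 4 class IIa genes, and the V2 list those of 2 and 4.

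**Figure D1:**
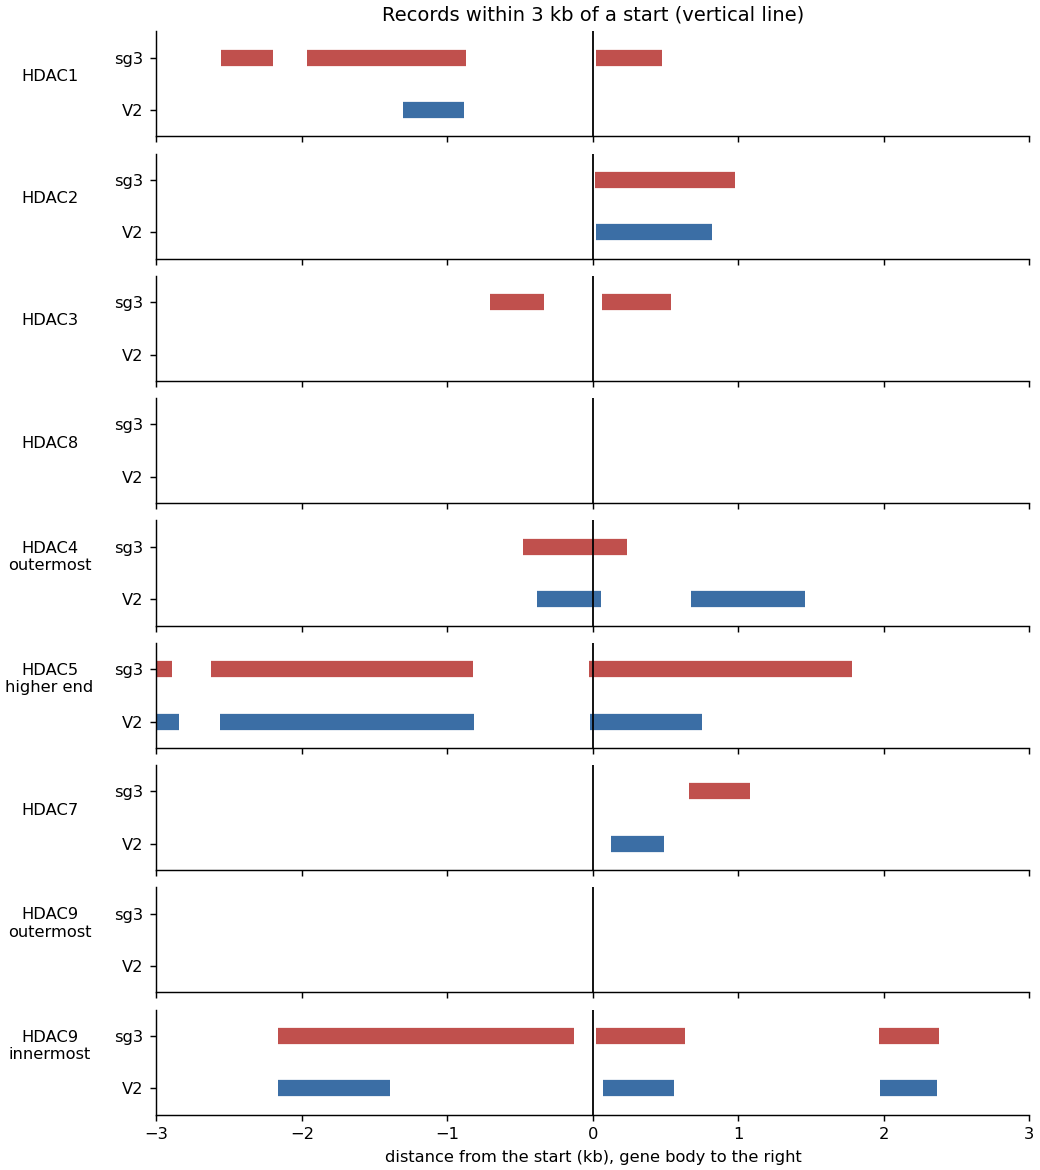
Records of the sg3 list (red) and the V2 list (blue) within 3 kb of a start, drawn as bars against the distance from the start in kb with the gene body to the right. For most members the start lies beside a record and not inside it, and HDAC8 and the outermost HDAC9 start have no record in either list.

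The start base itself was inside a record at 2 of the 7 members with an sg3 start record and at 2 of the 6 with a V2 start record. In both lists these were HDAC4 and HDAC5 (for HDAC5 the higher-coordinate end). Over all genes with a start record, the start base was covered in 45.7% in sg3 and 31.9% in V2, so the share among the members was near that of all genes in V2. At HDAC1 the nearest sg3 record began 23 bases from the start, at HDAC2 it ended 15 bases from it, at HDAC3 60 bases and at the innermost HDAC9 start 20 bases. At HDAC7 the nearest edge was 660 bases away in sg3 and 123 bases in V2.

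Among class I genes, HDAC1 (chromosome 1, 32292083 to 32333626) had the strongest record at its own start. The sg3 list had 4 records in its window and the V2 list 2. The strongest sg3 record, chr1:32290120-32291211, lay upstream and ended 872 bases before the start, with a fold enrichment of 8.50 (-log10 q 55.6), within the top 6.73% of the sg3 list. Fold enrichment compares the ChIP signal with its local background at the highest point of a record, and q is the adjusted p, both as the authors' MACS2 wrote them for each record, and they rank records within 1 list only. Its V2 partner, chr1:32290775-32291196, had a fold enrichment of 4.14, and the summits of the pair lay 3 bases apart. The records thus share a peak position and differ in called width, 1092 bases in sg3 and 422 bases in V2. A second sg3 start record, chr1:32292106-32292556 (fold enrichment 3.63), lay just inside the gene, 894 bases past the upstream one, and had no V2 partner. Both lists had a further record inside the gene, 5818 bases from the start in sg3 (3.28) and 5846 bases in V2 (2.43).

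HDAC2 (chromosome 6, 113933028 to 113971148) had a single record in each list, at the first bases of the gene. The sg3 record, chr6:113970173-113971133, had a fold enrichment of 4.64 (-log10 q 26.7), and the V2 record, chr6:113970331-113971124, had 2.77 (9.66). They were 961 and 794 bases wide with summits 18 bases apart. The antisense gene HDAC2-AS2 overlaps this end of HDAC2, and ChIP does not assign a record to a strand.

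HDAC3 (chromosome 5, 141620881 to 141636849) was the member marked at its start in the sg3 list alone. Its start is 147 bases from the neighbouring gene RELL2, which lies on the other side. An sg3 record, chr5:141636312-141636789 (fold enrichment 2.89, -log10 q 9.72), ended 60 bases inside the gene. A second, chr5:141637182-141637556 (2.86, 8.86), lay on the RELL2 side, nearer to the start of that gene, and 392 bases without a record separated them. Both ranked low in the sg3 list, at 64.7% and 69.3% from the top. The nearest V2 record to the start was 17882 bases away. That record, chr5:141618452-141618967 (4.25, -log10 q 29.2), and its sg3 partner, chr5:141618401-141619029 (7.94, -log10 q 78.8), had the highest -log10 q of all class I windows in their lists. They lay past the other end of HDAC3, and the sg3 record covered a start of DIAPH1, a formin gene, so they fall in the HDAC3 window by distance and are nearest to DIAPH1.

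HDAC8 (chromosome X, 72329516 to 72572843) had no record in the gene or within 20 kb in either list. The nearest sg3 record was 295.72 kb from its start and the nearest V2 record 1205.79 kb. Genes without any record in this window made up 30.6% of all protein-coding genes, 25% of those of 200 to 300 kb and 53.4% of those on chromosome X. A peak list shows only what passed the caller's threshold, so a level of the mark below it at HDAC8 was not detectable here.

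**Figure D2:**
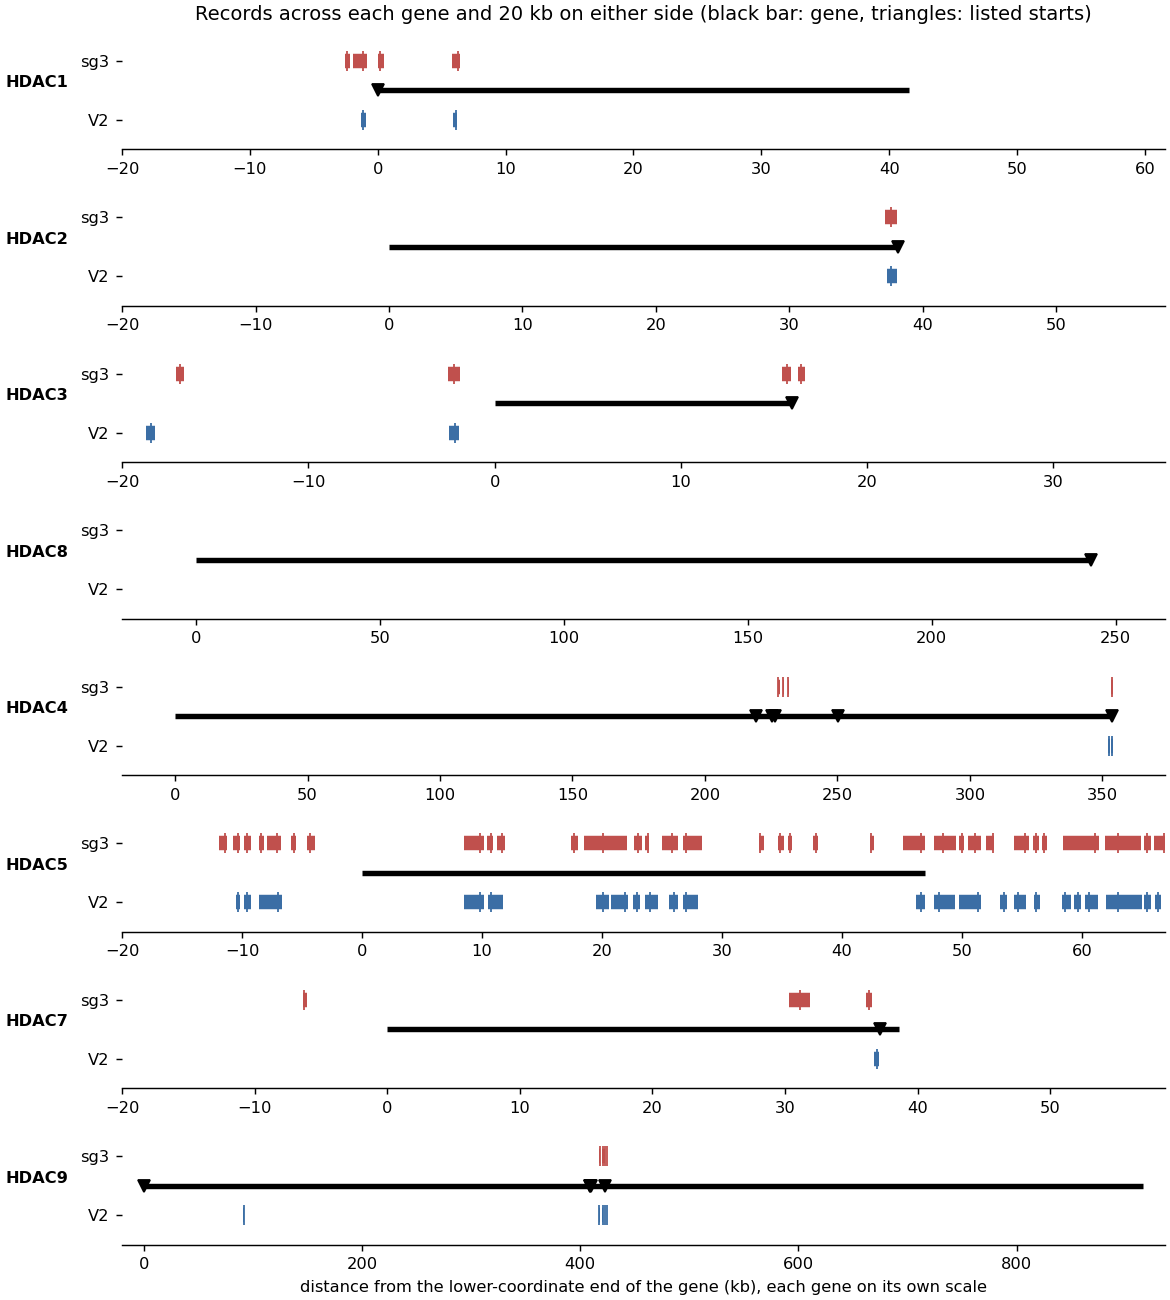
Records of the sg3 list (red, above) and the V2 list (blue, below) along each gene and 20 kb on either side, against the distance from the lower-coordinate end of the gene in kb, with summits as ticks and each gene on its own scale. HDAC5 has records over much of its window, with gaps in both lists. HDAC9 has its records about 417 kb into the gene apart from 1 V2 record, and HDAC8 is empty.

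Among class IIa genes, HDAC4 (chromosome 2, 239048168 to 239401649) was marked at its outermost start in both arms. The sg3 record there, chr2:239401413-239402128, had a fold enrichment of 3.87 (-log10 q 16.0). The V2 record over it, chr2:239401592-239402032, had 2.04 (2.91) and was among the weakest of its list, at 98.9% from the top. The V2 list had a stronger record further inside the gene, chr2:239400190-239400973 (3.04, 8.86), 676 bases from the start and without an sg3 partner. In sg3 the remaining 3 records formed a group inside the gene, from 239275556 to 239279932, near the listed internal start at 239274781, which holds 3 CpG. Their fold enrichments were 3.59, 2.98 and 3.81, and none had a V2 partner. The nearest V2 record to that internal start was 125409 bases away. HDAC4-AS1, an antisense gene, begins beside the outermost start, and ChIP does not assign the records there to either gene.

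HDAC9 (chromosome 7, 18086825 to 19002416) was marked at an internal position and not at its outermost start. The 4 sg3 records lay between 18504231 and 18511651, a stretch of 7421 bases in a gene of 915.592 kb, and the first lay 417.406 kb from the outermost start. All 4 had a V2 partner. The strongest by -log10 q, chr7:18507105-18509140, had a fold enrichment of 6.56 (-log10 q 40.8) and was 2036 bases wide. Its V2 partner, chr7:18507106-18507874, had 6.07 (30.4) and was 769 bases wide. The next, chr7:18509290-18509900 (8.50), began 20 bases past the listed start at 18509270, and its V2 partner, chr7:18509339-18509827, had 7.27. The summits of the 4 pairs lay 2, 66, 29 and 103 bases apart, so both arms placed the mark at the same sites. The listed starts at 18495710, 18495749 and 18496262 had no record within 1 kb, the nearest being 7969 bases from the last of them in sg3. HDAC9 was also the member with more V2 than sg3 records, 5 against 4. The extra V2 record, chr7:18177818-18178274 (2.93), had a -log10 q of 2.18, near the bottom of its list. Of the 3763 genes with at least 4 records in each list, 19.6% had more in V2.

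HDAC7 (chromosome 12, 47782722 to 47821344) had no record shared between the lists. The sg3 list had 3 records in its window and the V2 list had 1. The sg3 record near the listed start at 47819903, chr12:47818821-47819243 (fold enrichment 3.06), and the V2 record, chr12:47819415-47819780 (2.75), lay on the same side of the start with 171 bases between them. Both were weak, with a -log10 q of 5.41 and 5.71. The strongest sg3 record, chr12:47813023-47814613 (7.07, -log10 q 17.0), lay 5290 bases inside the gene. The third, chr12:47776332-47776690 (4.44), was nearest to a start of SLC48A1, a haem transporter gene.

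HDAC5 (chromosome 17, 44076753 to 44123641) held most of the records of the whole set. Its window of 86.889 kb had 33 sg3 records covering 33.0 kb, which is 37.9% of the window, and 23 V2 records covering 24.8 kb, which is 28.6%. The median over all genes was 1.15% covered in sg3 and 0.237% in V2. As many sg3 records as at HDAC5 were found at 0.591% of all genes, and as many V2 records at 0.836%. The fold enrichments ran from 2.37 to 10.8 in sg3 and from 2.61 to 8.80 in V2. In sg3, 11 of these records were 1 kb or wider, and in V2 12 were. The other members together had 3 such records in sg3 and 0 in V2. Over the whole lists 26.0% of sg3 records and 18.4% of V2 records were that wide.

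**Figure D3:**
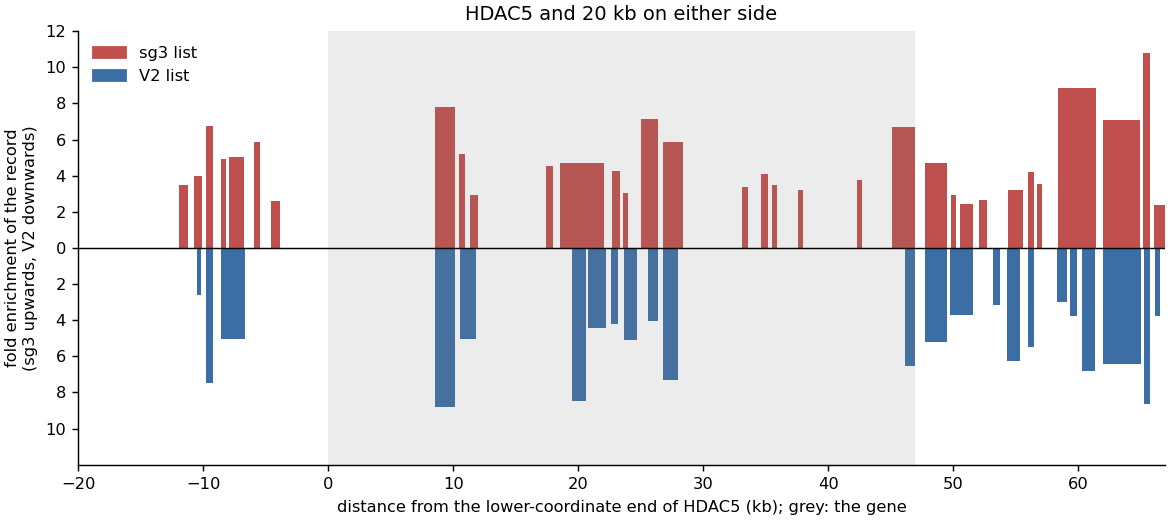
Fold enrichment of each record in HDAC5 (grey) and 20 kb on either side, against the distance from its lower-coordinate end in kb, with sg3 records upwards (red) and V2 records downwards (blue). The blocks of the lists line up along the window. The stretch of 18.176 kb before the higher-coordinate end holds 5 whole sg3 records, parts of the sg3 records at its edges, and no V2 record.

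The HDAC5 window is shared with other genes, and its strongest record is nearest to one of them. The sg3 record chr17:44141932-44142507 had a fold enrichment of 10.8 (-log10 q 100.6), within the top 1.18% of its list, and lay 2 bases from a start of HROB, a gene of DNA recombination and repair. Its V2 partner, chr17:44141964-44142490, had 8.62. By the nearest start, 6 sg3 records of the window went to HROB, 4 to LSM12 and 3 to G6PC3, a glucose-6-phosphatase gene, which leaves 20 nearest to an end of HDAC5. In V2 these counts were 7, 3, 0 and 13. Within the gene itself there were 15 sg3 and 9 V2 records. The strongest of these by -log10 q in both lists lay at the higher-coordinate end, chr17:44121862-44123665 in sg3 (6.69, -log10 q 55.4) and chr17:44122894-44123660 in V2 (6.52, -log10 q 52.3), with summits 19 bases apart. A second block of the gene was marked in both, chr17:44085289-44086896 in sg3 (7.80) and chr17:44085239-44086906 in V2 (8.80), with nearly the same edges.

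Where the arms differed at HDAC5, the records were weak or narrow in most cases. Of the 33 sg3 records 22 had a V2 partner, with a median fold enrichment of 4.83 and a median width of 1010 bases, against 3.50 and 481 bases for the 11 without. The longest V2 gap inside the gene, of 18176 bases from 44104717 to 44122894, held 5 whole sg3 records of 359 to 511 bases with fold enrichments from 3.22 to 4.07 and a -log10 q from 3.51 to 7.78. Stronger sg3 records with V2 partners also reached into its edges. These were chr17:44103488-44105105 (5.87, -log10 q 24.2) and chr17:44121862-44123665 (6.69, -log10 q 55.4). The strongest sg3 record without a partner, chr17:44070794-44071242 (5.88, -log10 q 25.0), covered a start of G6PC3. The order of the arms at HDAC5 depended on the length of the lists. When the sg3 list was reduced to its 40332 strongest records, HDAC5 had 18 sg3 against 23 V2 records. The smallest -log10 q was then 8.69 in sg3 and 2.01 in V2, so the lists were cut at unlike -log10 q. With a threshold of 10 on -log10 q HDAC5 had 17 in each, but q ranks records within 1 list only. When records within 1 kb were merged, there were 11 and 6.

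**Figure D4:**
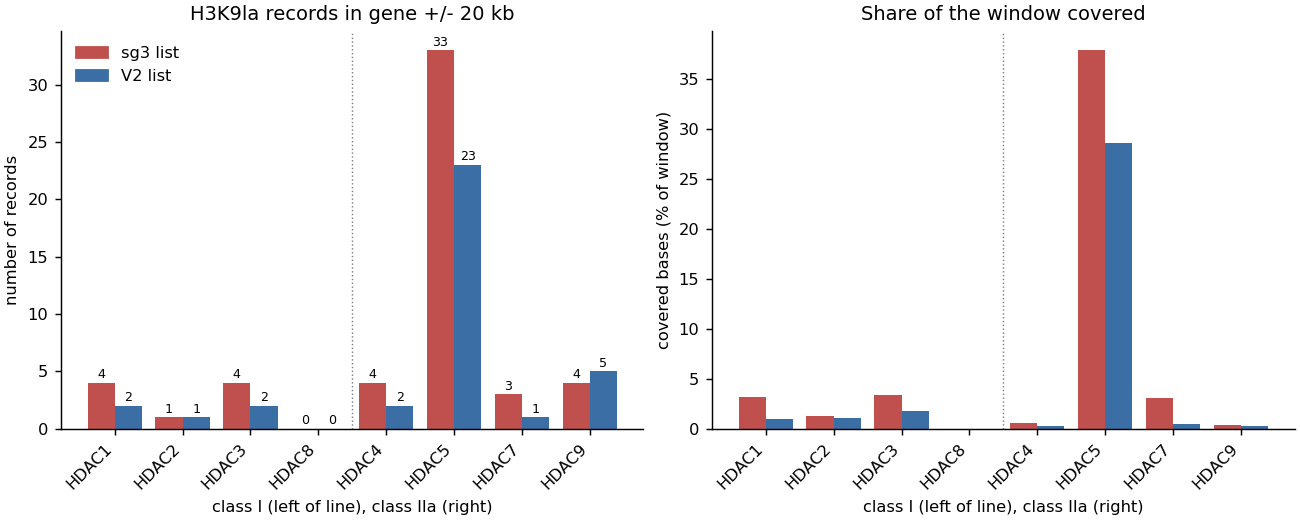
Number of records (left) and covered bases as a percentage of the window (right) for each gene and 20 kb on either side, with bars for the sg3 list (red) and the V2 list (blue) and class I left of the dotted line. HDAC5 stands above the other members in both, with 33 and 23 records, and no other member has more than 5.

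The order of the 2 classes by records per 100 kb depended on single genes and on the settings. Class IIa genes are longer, with windows of 1514.59 kb in all against 498.962 kb for class I, so records were counted per 100 kb. Class IIa windows had 44 sg3 records, or 2.91 per 100 kb, and class I windows 9, or 1.80. In V2 the values were 31 records, or 2.05 per 100 kb, and 5, or 1.00. Without HDAC5, class IIa was below class I, at 0.77 in sg3 and 0.56 in V2. Without HDAC8, class I was above class IIa, at 4.17 and 2.32. Without HDAC9, the longest member, class IIa was further above class I, at 7.16 and 4.65. In lists of equal length the classes were close in sg3, at 1.40 for class I and 1.45 for class IIa. With records within 1 kb merged, class IIa was below class I in V2, at 0.86 against 1.00. The median over the 4 genes had class I higher in both lists, at 3.09 against 2.42 in sg3 and 1.87 against 0.90 in V2. Over all protein-coding genes the median was 1.90 in sg3 and 0.50 in V2, and over those of 200 kb or more 0.39 and 0.24. HDAC9 had 0.42 sg3 records per 100 kb. Of the 314 genes of 500 kb or more, 67.8% had no more than HDAC9 in sg3 and 77.4% in V2. Members of a class are different genes and not replicates, so no test between the classes was made.

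**Figure D5:**
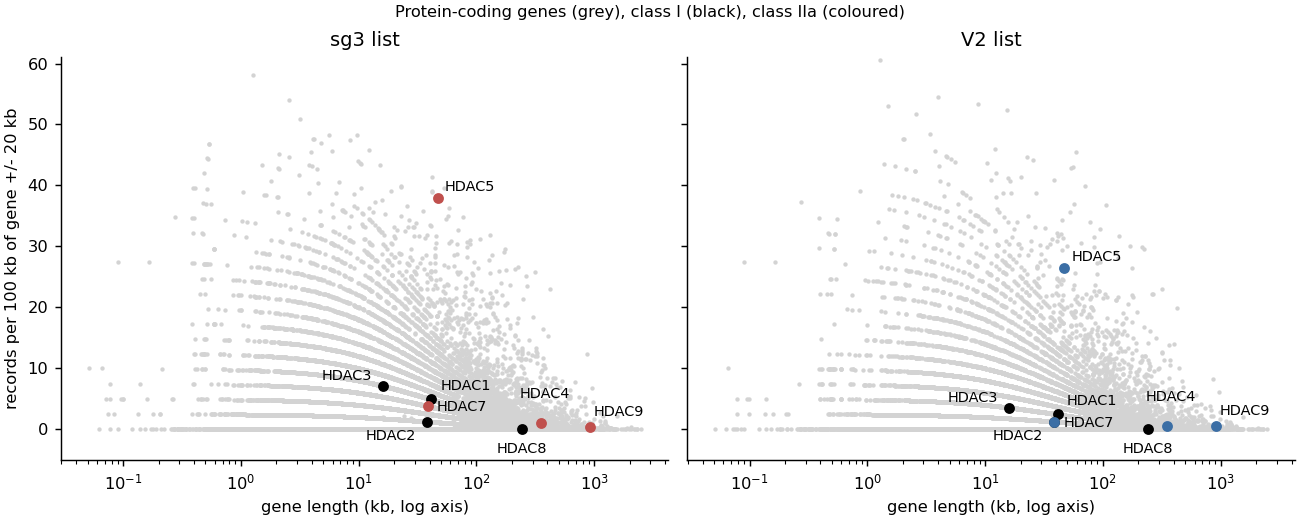
Records per 100 kb of gene and 20 kb on either side against gene length in kb (log axis) for all protein-coding genes (grey), class I (black) and class IIa (coloured), in the sg3 list (left) and the V2 list (right). HDAC5 lies at 38.0 and 26.5, apart from the other members, which lie at or below 7.15, and HDAC2 and HDAC7 overlap in V2.

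Over all 8 members, sharing between the arms was close to that of the whole lists. Without HDAC5 the shares were lower, but their intervals still included the shares of the whole lists. Of the 53 sg3 records of the members, 31 overlapped a V2 record by at least 1 base, which is 58.5% (exact 95% CI 44.1 to 71.9%), against 52.4% of the sg3 list. Of the 36 V2 records 31 overlapped an sg3 record, which is 86.1% (70.5 to 95.3%), against 86.3% of the V2 list. The intervals cover counting error only, and neighbouring records are not independent. Class I shared 4 of 9 sg3 records, 44.4% (13.7 to 78.8%), and class IIa 27 of 44, 61.4% (45.5 to 75.6%), with overlapping intervals. HDAC5 alone held 33 of these 44 records, and no test between the classes was made. Without HDAC5, class IIa shared 5 of 11, 45.5% (16.7 to 76.6%), close to class I. Of the 31 sg3 records with a partner, 15 had summits within 50 bases of it, which is 48.4%, against 53.5% over the whole list. The V2 records without an sg3 partner were the 1 near HDAC3, 1 each at HDAC4, HDAC5, HDAC7 and HDAC9.

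Genes that work with these enzymes had a start record more often than all protein-coding genes. This background was not matched for CpG content or for the number of starts. Of 31 genes of class I corepressor complexes, 28 had an sg3 start record and 22 a V2 start record, against 47.2% and 28.7% of all genes. Those with the highest -log10 q among the 7 in sg3 alone were GPS2 of the NCoR complex (fold enrichment 4.24), MBD3 of NuRD (4.54), RCOR3 of CoREST (4.16) and SAP30 of Sin3 (6.55). MTA1, a NuRD subunit, had one in V2 alone (3.94). RCOR2 and SIN3B had none. Of 23 partners and regulators of class IIa enzymes, 18 had an sg3 and 14 a V2 start record. The kinase gene PRKD3 (5.07), RFXANK (4.42), the 14-3-3 gene YWHAE (3.61) and the MEF2 gene MEF2C (3.28) had one in sg3 alone. CAMK1, CAMK4, MEF2B, MEF2D and PRKD1 had none, although MEF2D had 11 sg3 and 10 V2 records in the gene or within 20 kb of it. The counts describe these lists, and no test of them was made.

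The deacetylases of the remaining classes were counted in the same way. HDAC6, the class IIb tubulin deacetylase, had 4 sg3 and 2 V2 records, with start records of fold enrichment 8.19 and 6.28. HDAC10, the class IIb polyamine deacetylase, had 1 sg3 record, nearest to a start of TUBGCP6 (4.20), and 0 in V2. HDAC11, the class IV enzyme, had 10 sg3 and 7 V2 records, and its strongest sg3 record, chr3:13483366-13485251 (11.3), lay 3060 bases from its start. In number of records HDAC11 was second to HDAC5 among the 11 deacetylase genes in both lists. Only 2 sg3 and 4 V2 records overlapped HDAC11 itself. By the nearest start, 7 sg3 and 6 V2 records went to HDAC11 and the rest to FBLN2.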

How the data were processed

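H3K9la ChIP-seq of KYSE30 cells was available as 2 narrowPeak lists, 1 per arm, on hg38. Per the submitters' processing notes, the tools were MACS2 2.2.9.1, SAMtools 1.18, Bowtie2 2.5.1, Trim Galore 0.6.10 and FastQC 0.12.1. Command line, control library and read depth are not given in these sources. Per record the authors deposited a fold enrichment (ratio), -log10 p, -log10 q, an integer score, not used further, and a summit offset. Records were joined to 19974 RefSeq protein-coding genes (chromosomes 1 to 22 and X, GRCh38.p14) with Python 3.11.15 and pandas 2.3.3, and the counting was tested on simulated data. Starts came from the RefSeq promoter table, which lists 15813 of these genes and 7 of the 8 members. For the others either end was used. Overlap meant at least 1 base. Intervals are exact Clopper-Pearson. The 8 members, the companion gene lists and the motifs were chosen with earlier results of these data known. Named were all members, HDAC6, HDAC10 and HDAC11, and companions with a start record in 1 list only (up to 4 by -log10 q) or in neither (up to 6). Alternatives changed the window, the threshold, the list length, merging, the overlap and the genes of a class.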

Additional observations from a re-analysis of the deposited data

How the results depend on the processing

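Of 55 recomputed values, 26 stayed within 1.5 times the reported one, among them all those with windows of 50 kb and with an overlap of at least 50% of the shorter record. With the gene alone and no flank, class I had 1.18 sg3 and 0.59 V2 records per 100 kb and class IIa 1.85 and 1.26, and 2 and 11 sg3 records lacked a V2 partner. At a -log10 q of at least 10 the densities were 1.00 and 0.40 for class I and 1.39 and 1.25 for class IIa, the records without a partner 3 and 5, and 3 members had a V2 start record. In lists of equal length class IIa had 1.45 sg3 records per 100 kb, near the 1.40 of class I and below its own 2.05 in V2. Each class then had 3 records without a partner. The smallest -log10 q in those lists was 8.69 in sg3 and 2.01 in V2, so the lists were cut at unlike -log10 q. Merging within 1 kb gave class IIa 1.39 in sg3, against 1.20 for class I, and 0.86 in V2, below the 1.00 of class I, with 2 class I and 10 class IIa records without a partner. After the data were seen, each gene was left out in turn. Without HDAC5 class IIa had 0.77 and 0.56, with 6 records without a partner. Without HDAC8 class I had 4.17 and 2.32. Leaving out either gene put class I above class IIa in both lists. Without HDAC9 class IIa had 7.16 and 4.65, and without HDAC1 or HDAC3 class I had 1.20 and 1.13 in sg3. The other single genes moved neither density by over 1.5 times. No paired analysis was possible because each arm has 1 ChIP library. Without read depth, a region in 1 list only cannot be told apart from a difference in depth or in calling.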
